A study of Mus musculus with 6 samples.

Results

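Molecular chaperones and chaperonins, the proteins that fold, refold and hold other proteins, were followed by their RNA in mouse lung tumors and normal lung. The members are the rows of the count table whose symbols begin with Dnaja, Dnajb, Dnajc, Hspa, Hspb or Hsp90 and a number, together with Hspd1, Hspe1, Hsph1, Tcp1, Trap1 and the Cct genes, 83 of 22477 gene rows in all. By family they are 4 HSP90 genes, 14 HSP70 and HSP110 genes, 4 DNAJA, 13 DNAJB and 28 DNAJC genes, 8 small heat shock protein genes, 10 genes of the cytosolic chaperonin and 2 of the mitochondrial chaperonin. The samples were 4 tumors and 2 pieces of normal lung from separate mice of the genotype Rb1/Trp53/MycT58A, called RPM, in which Cre recombinase removes Rb1 and Trp53 and turns on a stabilized mutant Myc, giving small cell lung cancer. All 6 samples are labelled with the same inducing virus, Ad5CGRP-Cre, given into the trachea at 8 weeks of age per the labels' protocol, whose CGRP promoter favors neuroendocrine cells. The labels describe treatment arms of entinostat and anti-PD-1 for the study as a whole but place none of these samples in one, and both normal samples carry the floxed alleles and the virus too. The tumors are called tumor 3, 4, 5 and 6 and the normal samples normal 1 and 2, as numbered in the sample titles.

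HSP70 proteins bind short greasy stretches of unfolded chains and release them in a cycle driven by ATP. J-domain proteins, the DNAJ families, bring clients and start the cycle, and nucleotide exchange factors such as the HSP110 proteins end it. HSP90 acts later on kinases, receptors and other near-native clients. The chaperonins are barrels that enclose a chain while it folds. The cytosolic barrel, called CCT or TRiC, folds actin, tubulin and many ring-shaped proteins, and the mitochondrial barrel is built of HSP60 with a lid of HSP10. Small heat shock proteins hold unfolded chains without ATP and are abundant in muscle.

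Between 54735438 and 99122494 counts were recorded per library, of which the members took at most 1.35% in the normal samples and 1.61% to 1.74% in tumors. All 9 neuroendocrine markers examined were higher in tumors, and their summed level was 716 to 1220.0 CPM, the count of a gene per 1000000 counts of the scaled library, in tumors and 12.0 to 22.3 CPM in normal lung. Markers of alveolar type 2 cells summed to 21353 to 23547 CPM in normal lung and 57.2 to 723 CPM in tumors, so each tissue carried the markers of its label. One library stood apart in muscle genes. Acta1, skeletal muscle actin, was at 321 CPM in tumor 6 against 1.97, 1.16 and 1.05 CPM in tumors 3 to 5, and Ckm, muscle creatine kinase, was at 146 CPM there. Both normal samples instead held heart muscle myosin, with Myh6 at 64.7 and 239 CPM and at most 10.6 CPM in any tumor.

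Of the 79 members with enough counts to test, 28 rose in tumors and 22 fell, and 29 did not pass (edgeR quasi-likelihood test, Benjamini-Hochberg adjusted p under 0.05 over 18027 genes). These are 35.4% and 27.8% of the tested members, beside 31.3% of all tested genes called higher, 32.6% called lower and 63.9% called in either direction, so as one set the chaperones were called about as often as any genes. The same shares of all tested genes apply beside the list counts below that use every library. The median log2 fold change was 0.11 over the members and 0.015 over all tested genes. The families parted. Every tested gene of both chaperonins rose, no DNAJB gene rose while 6 fell (with DESeq2 Dnajb5 rose as well), and the HSP90 and HSP70 families had members in both directions. Every tumor stood above both normal samples for 35 members and below both for 28, where such separation was seen in 37.4% and 39.8% of all tested genes. Without normal 1 or normal 2 fewer genes were called, both among the members and over all tested genes. The median log2 fold change without normal 1 was 0.013 over the members and 0.033 over all tested genes. Without normal 2 these medians were 0.11 and 0.080. In both fits the remaining normal sample is taken to have the spread of the tumors. The tissue was sequenced whole, so fewer cells of a type and less RNA per cell cannot be told apart in any of these values.

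**Figure D1:**
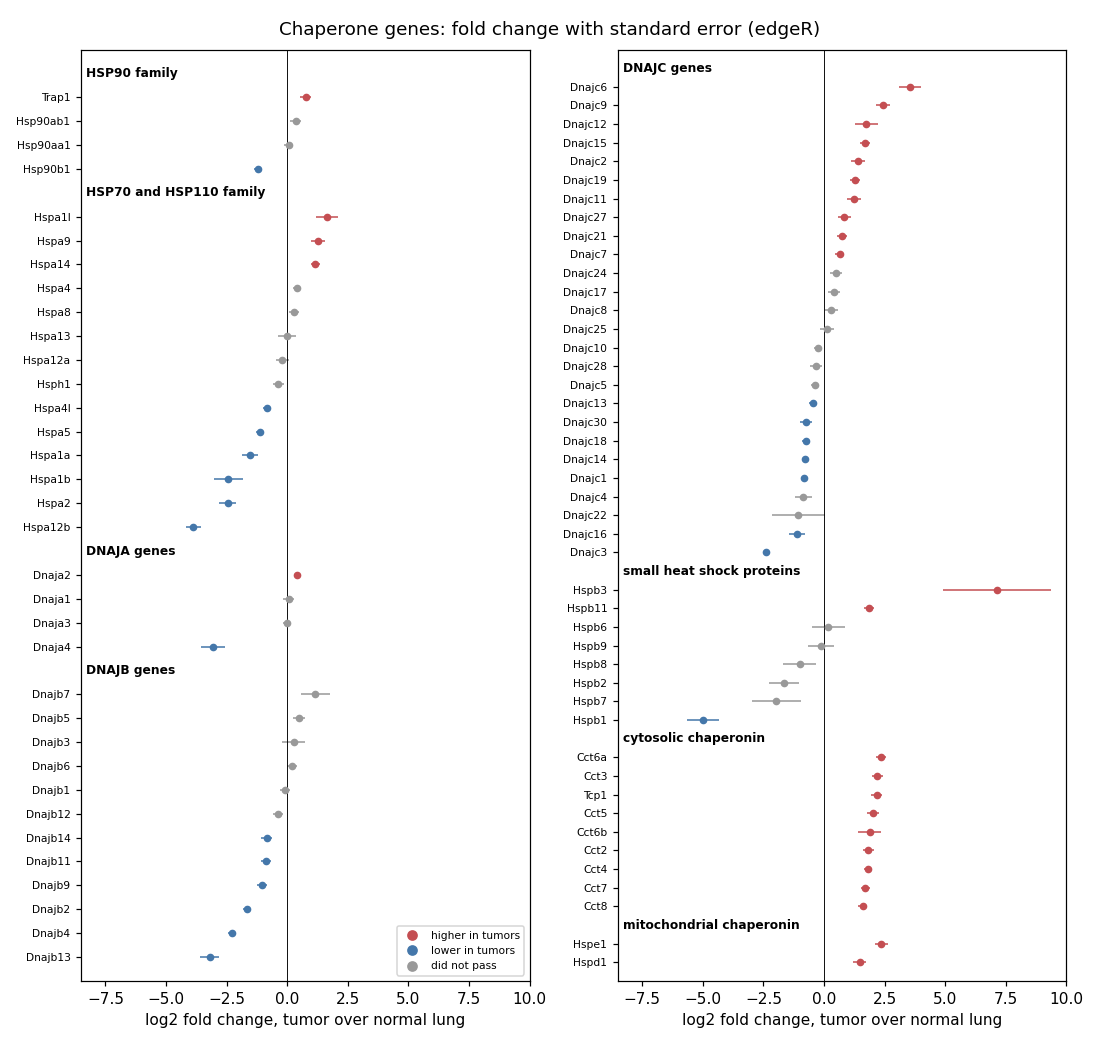
Log2 fold change of tumor over normal lung for the 79 tested chaperone genes, sorted within families, with points for the estimate and bars for its standard error. Red genes were called higher, blue genes lower and grey genes did not pass; all 9 tested genes of the cytosolic chaperonin lie between 1.59 and 2.36.

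Summed over its genes, the cytosolic chaperonin went from 1305 and 1403 CPM in normal lung to 5690.4, 6281, 4590.2 and 4832 CPM in tumors 3 to 6. The mitochondrial chaperonin went from 257 and 304 CPM to 942, 1209, 703 and 945 CPM. Both sums were above normal lung in every tumor. The HSP90 sum stayed within 4037 to 4733 CPM in tumors against 4141 and 4472 CPM in normal lung, and the sum of the HSP70 and HSP110 genes ran from 3905 to 4259.8 CPM against 3890.1 and 4278 CPM. For those families the groups overlapped. Small heat shock proteins summed to 243 and 303 CPM in normal lung and to 49.7 to 93.7 CPM in tumors. Hspb1 alone made up 172 and 217 CPM of those 2 normal sums. Gene by gene, 1 of the 8 fell, 2 rose and 5 did not pass.

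**Figure D2:**
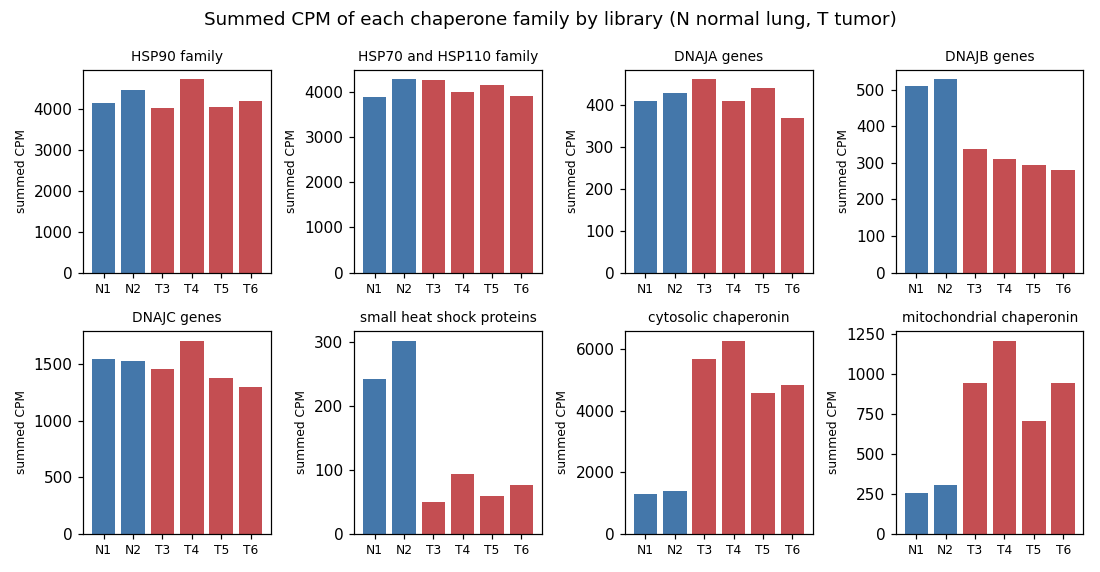
Summed CPM of each family in each library, one panel per family, with blue bars for normal 1 and 2 (N) and red bars for tumors 3 to 6 (T). The chaperonin panels are higher in every tumor, the DNAJB and small heat shock protein panels lower in every tumor, and the HSP90 and HSP70 panels overlap. In normal lung most of the small heat shock protein sum is Hspb1.

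All 9 tested genes of the cytosolic chaperonin rose. Its ring holds 8 kinds of subunit, each from its own gene, and all 8 genes passed the test with folds from 3.02 to 5.12. Cct6a, the zeta subunit, stood at 148 and 163 CPM in normal 1 and 2 and at 902, 898, 694 and 692 CPM in tumors 3 to 6 (log2 fold change 2.36, SE 0.22, adjusted p = 0.000216). Cct3, the gamma subunit, stood at 136 and 151 CPM in normal 1 and 2 and at 761, 743, 549 and 585 CPM in tumors 3 to 6 (log2 fold change 2.20, SE 0.22, adjusted p = 0.000305). For the alpha subunit gene Tcp1 the levels were 198 and 206 CPM in the normal samples and 899.8, 1155, 756 and 829.8 CPM in the tumors (log2 fold change 2.17, SE 0.24, adjusted p = 0.000404). For Cct6a, Cct3 and Tcp1 the lowest tumor was more than 3 times the higher normal sample.

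Cct5, the epsilon subunit, was at 187 and 201 CPM in normal lung and 863, 984, 629.8 and 661 CPM in tumors 3 to 6 (log2 fold change 2.02, SE 0.26, adjusted p = 0.000702). Cct2, the beta subunit, was at 164 and 174 CPM and 563, 749, 492 and 595 CPM (log2 fold change 1.82, SE 0.22, adjusted p = 0.000611). The delta subunit gene Cct4 differed least between tumors, at 142 and 145 CPM in normal lung and 493, 544, 476 and 515 CPM in tumors (log2 fold change 1.82, SE 0.16, adjusted p = 0.000169). Its highest tumor was 1.14 times its lowest. Cct7, the eta subunit, was at 183 and 203 and 702, 680.2, 594 and 539 CPM (log2 fold change 1.70, SE 0.19, adjusted p = 0.000444), and the theta subunit gene Cct8 was at 147 and 158 and 506, 527, 399 and 414 CPM (log2 fold change 1.59, SE 0.20, adjusted p = 0.000604). Among tumors the 8 genes kept a common order in part, since tumor 4 was highest for 5 of them and tumor 3 for the other 3, and tumor 5 was lowest for 6 and tumor 6 for the other 2. All 8 stayed past the threshold under every alternative run.

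Cct6b, a second zeta gene known from testis, was low, at 0.254 and 0.464 CPM in normal lung and 1.48, 1.51, 1.08 and 1.27 CPM in tumors (log2 fold change 1.89, SE 0.47, adjusted p = 0.0119), and its call was lost without normal 1 (1.51). Cct8l1, a gene like Cct8, had at most 6 counts in any library and was not tested. Some exon length is shared with neighbours on the other strand in the GRCm38 annotation, 12.5% of Cct6a with Psph and 11.3% of Tcp1 with Acat3. Strand use in the counting is not given in the sources used here, and these neighbours were higher in tumors too, at 7.90 and 8.78 against 31.3, 25.0, 14.7 and 13.9 CPM for Psph and 34.0 and 36.4 against 141, 185, 115 and 129 CPM for Acat3. The other ring genes shared at most 6.22% with a neighbour in the table.

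**Figure D3:**
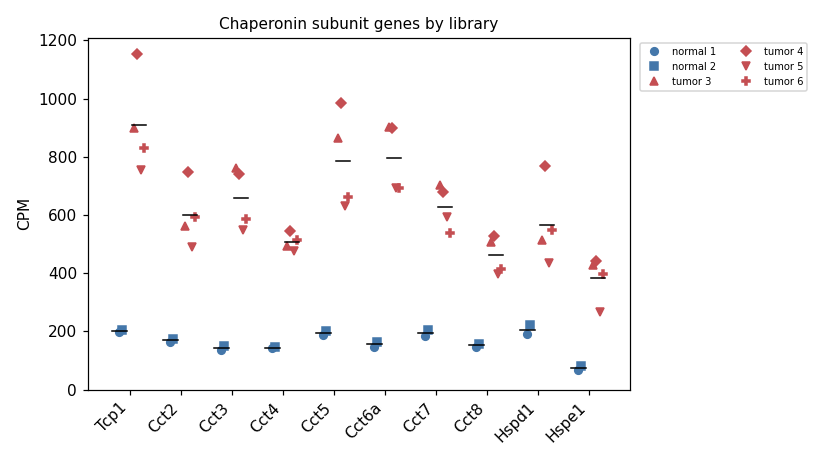
CPM of the 8 CCT ring subunit genes and of Hspd1 and Hspe1 in each library, with blue marks for normal 1 and 2, red marks for tumors 3 to 6 and a black line at each group mean. Every tumor lies above both normal samples for all 10 genes.

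Genes that work beside the chaperonin were examined as a list of prefoldin, the holder that hands chains to CCT, with chaperonin regulators and tubulin folding cofactors. Of 18 listed genes 17 were tested, 11 rose and 1 fell, with a median log2 fold change of 0.91. Pfdn4, a prefoldin subunit, went from 13.2 ± 0.331 (SD, n = 2) to 118 ± 33.4 CPM (SD, n = 4) (log2 fold change 3.16, SE 0.30, adjusted p = 0.000245). Vbp1, another prefoldin subunit, rose (log2 fold change 2.00, SE 0.24, adjusted p = 0.000519), as did the beta-tubulin cofactor gene Tbca (log2 fold change 1.85, SE 0.21, adjusted p = 0.00045). Pdcl, a phosducin-like regulator that works with CCT, was the listed gene that fell (log2 fold change -0.91, SE 0.15, adjusted p = 0.00234). Fewer genes of the list were called higher without normal 1 or normal 2, as over all tested genes, while the named genes kept their calls. Of the main CCT clients listed, Tubb5 and Tuba1b, of beta- and alpha-tubulin, rose 3.92-fold and 2.71-fold and Actb, beta-actin, was 2.66-fold lower.

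Both genes of the mitochondrial chaperonin rose. Hspe1, the HSP10 lid, stood at 67.2 and 82.7 CPM in normal 1 and 2 and at 429, 441, 268 and 398 CPM in tumors 3 to 6 (log2 fold change 2.36, SE 0.27, adjusted p = 0.000474). Hspd1, the HSP60 barrel, stood at 189.9 and 221 CPM in normal 1 and 2 and at 513, 768, 435 and 548 CPM in tumors 3 to 6 (log2 fold change 1.46, SE 0.27, adjusted p = 0.00339). The 2 genes lie head to head and share a promoter, yet the lid gene moved further. Per kilobase of annotated exon, the ratio of Hspe1 to Hspd1 was 0.634 and 0.671 in normal lung and 1.50, 1.03, 1.10 and 1.30 in tumors 3 to 6, with no overlap between the groups. The ratio is given as a description, and both genes have near-identical copies elsewhere in the genome that could share reads.

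The promoter between them is shown because it held the motif of the heat shock factors, searched on both strands as the blocks GAA, TTC and GAA with 2 bases of any kind after the first and after the second, which lies in 0.603% of the 32851 promoters of the same length in RefSeq. The window runs from 250 bases before to 50 after the annotated start of Hspe1, at chr1:55087898-55088197 on the plus strand of GRCm38.p6, and the capitals mark 2 overlapping matches.
Hspe1: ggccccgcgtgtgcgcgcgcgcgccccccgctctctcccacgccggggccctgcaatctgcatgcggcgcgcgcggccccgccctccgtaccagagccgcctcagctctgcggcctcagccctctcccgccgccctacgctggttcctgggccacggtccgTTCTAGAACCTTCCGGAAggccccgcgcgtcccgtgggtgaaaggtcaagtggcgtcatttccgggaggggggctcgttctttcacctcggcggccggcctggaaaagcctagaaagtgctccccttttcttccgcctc
Among the 68 members with a promoter in RefSeq, matches were found at Hspd1, Hspe1, Hsph1 and Dnajb6, of which the first 2 rose and the others did not pass the test. None of the 9 cytosolic chaperonin genes with a promoter window held this motif or the E-box CACGTG, which lay in 8.05% of 87 member promoters and 7.15% of all. A match is a description of these letters in this window and is no evidence of binding. Only these exact letters were searched, so a window without a match is no evidence that binding is absent.

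Other chaperones of the mitochondrion moved with the barrel. Hspa9, the mitochondrial HSP70 called mortalin, stood at 193 and 237 CPM in normal 1 and 2 and at 442, 732, 426 and 484 CPM in tumors 3 to 6 (log2 fold change 1.28, SE 0.28, adjusted p = 0.00718), and its call was lost without normal 1 (1.12). Trap1, the mitochondrial HSP90, stood at 65.6 and 72.3 CPM in normal 1 and 2 and at 101, 139, 90.7 and 136 CPM in tumors 3 to 6 (log2 fold change 0.76, SE 0.23, adjusted p = 0.023), with its call lost without normal 1 (0.68) or normal 2 (0.82). For both genes tumor 4 was the highest. Dnajc15 and Dnajc19, J-proteins of the motor that pulls proteins through the inner membrane, stood at 19.7 and 19.1 and 18.5 and 19.0 CPM in the normal samples. In tumors 3 to 6 Dnajc15 was at 63.1, 73.5, 48.1 and 66.7 CPM (log2 fold change 1.69, SE 0.21, adjusted p = 0.000665). Dnajc19 was at 52.6, 52.8, 37.9 and 39.8 CPM (log2 fold change 1.29, SE 0.21, adjusted p = 0.0021). Neither gene had a tumor near the normal range.

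Dnajc11, a J-protein of the outer membrane, rose (log2 fold change 1.24, SE 0.28, adjusted p = 0.00813), a call lost without normal 1 (1.17) or normal 2 (1.29). The exceptions were Dnaja3, a matrix J-protein, at 52.2 and 54.6 CPM in normal lung and 47.6, 63.2, 48.6 and 53.9 CPM in tumors (log2 fold change -0.0019, adjusted p = 0.992), and Dnajc30, a J-protein of the inner membrane, which fell by 0.74 on the log2 scale. The Dnajc30 call was lost when normal 1 (-0.63) or normal 2 (-0.87) was left out, and likewise for tumor 3 (-0.69), 5 (-0.72) and 6 (-0.64). In a list of 20 genes of mitochondrial import, folding and proteolysis, 18 rose and none fell, and of the 14 that are not members 13 rose (median log2 fold change 1.35). They were led by the import receptor gene Tomm20, from 61.7 ± 3.20 CPM (SD, n = 2) to 475 ± 82.0 CPM (SD, n = 4; log2 fold change 2.95, SE 0.23, adjusted p = 0.000118), and by Timm50 of the inner membrane channel (log2 fold change 2.44, SE 0.22, adjusted p = 0.000195). Without normal 1 or normal 2 fewer genes of the list were called higher, as over all tested genes.

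The general chaperones of the cytosol differed little. Hsp90ab1, the constitutive HSP90, stood at 1893 and 2109 CPM in normal 1 and 2 and at 2359, 3018, 2255 and 2523 CPM in tumors 3 to 6 (log2 fold change 0.34 ± 0.21, adjusted p = 0.195). Hsp90aa1, the stress-inducible HSP90, stood at 979 and 1073 CPM in normal 1 and 2 and at 1117, 984, 1153 and 1013 CPM in tumors 3 to 6 (0.056 ± 0.17, adjusted p = 0.787). Hspa8, the constitutive HSP70, stood at 1750.2 and 1940.4 CPM in normal 1 and 2 and at 2421, 2011, 2314 and 2215 CPM in tumors 3 to 6 (0.28 ± 0.19, adjusted p = 0.232). None of the 3 passed the test, although every tumor was above both normal samples for Hsp90ab1 and Hspa8. They were nonetheless among the most abundant members. Per kilobase of exon, Hsp90ab1 stood 2.53 and 2.58 times above Hsp90aa1 in normal lung and 2.77, 4.02, 2.56 and 3.26 times above it in tumors 3 to 6, where tumor 5 lay between the normal samples. Hspa8 and Hsp90aa1 have processed copies with near-identical stretches of up to 1942 and 2255 aligned bases, so their counts depend on how such reads were assigned.

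Hspa4, an HSP110 exchange factor, was at 273 and 271 CPM in normal lung and 374, 319.9, 388 and 346 CPM in tumors (0.39 ± 0.15, adjusted p = 0.0609), and it passed under 8 of 15 alternatives, among them without tumor 4 (0.44) or tumor 6 (0.50). Hsph1, HSP110 itself, was at 108 and 142 CPM and 94.2, 71.7, 118 and 103 CPM and did not pass. Their relative Hspa4l was lower in every tumor, at 183 and 181 CPM against 79.5, 114, 108 and 106 CPM (log2 fold change -0.84, SE 0.17, adjusted p = 0.00572). The inducible HSP70 genes Hspa1a and Hspa1b, the classic targets of heat shock factor, were low and fell. Hspa1b was at 8.15 and 11.0 CPM in normal lung and 0.522, 2.20, 1.59 and 2.77 CPM in tumors (log2 fold change -2.43, SE 0.60, adjusted p = 0.0109), and Hspa1a was at 4.12 and 3.52 CPM and 1.06, 1.51, 1.15 and 1.57 CPM (log2 fold change -1.53, SE 0.34, adjusted p = 0.00764). The pair match over 99.36% of 2184 aligned bases, so the split between them is uncertain. The Hspa1b call was lost without normal 2 (-2.22) and the Hspa1a call without normal 1 (-1.42). Their neighbour Hspa1l, known from testis, was at 1.18 and 2.01 CPM in normal lung and 3.49, 4.12, 5.72 and 6.63 CPM in tumors (log2 fold change 1.65, SE 0.44, adjusted p = 0.0158, or 1.30 and not past the threshold without normal 1), and an antisense transcript overlaps 71.9% of its exons in GRCm38.

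Hspa14, an HSP70 that sits on the ribosome, was at 40.0 and 42.6 CPM in normal lung and 109, 96.0, 85.6 and 77.8 CPM in tumors (log2 fold change 1.16, SE 0.18, adjusted p = 0.00181). Its J-protein partner Dnajc2, the mouse relative of yeast zuotin, was at 29.1 and 32.1 and 72.0, 115, 64.4 and 72.6 CPM (log2 fold change 1.41, SE 0.28, adjusted p = 0.00437). Both were above normal lung in every tumor. Among the main J-proteins of cytosolic HSP70, Dnaja2 rose a little, from 146 and 147 CPM to 200.3, 191, 210.3 and 182 CPM (log2 fold change 0.42, SE 0.14, adjusted p = 0.0336), and lost its call without normal 1 (0.41), normal 2 (0.40) or tumor 5 (0.39) and with total counts (0.41) or no filter (0.39). Dnaja1 and the heat-inducible Dnajb1 did not pass, with log2 fold changes of 0.060 and -0.090. Of 27 HSP90 co-chaperone genes 10 rose and 3 fell, where 31.3% of all tested genes were called higher and 32.6% lower. The genes that rose were led by Tomm70a, the import receptor that takes clients from HSP90 (log2 fold change 1.75, SE 0.15, adjusted p = 0.000174), the cyclophilin gene Ppid (log2 fold change 1.92, SE 0.18, adjusted p = 0.000243) and Ruvbl2 of the R2TP complex (log2 fold change 1.37, SE 0.24, adjusted p = 0.00272). Of the 3 that fell, Unc45a (-0.91) is a myosin chaperone. Fnip1, a brake on the HSP90 ATPase, fell by 0.58 and the muscle gene Unc45b by 3.56, and both lost their calls without normal 1 (-0.57 and -3.97) or normal 2 (-0.62 and -3.03), as Unc45b did without tumor 5 (-3.26). Fewer genes of this list were called without normal 1 or normal 2, as over all tested genes.

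The heat shock factors themselves were measured as well. Hsf1, the master regulator of the heat shock response, was at 23.8 and 28.6 CPM in normal lung and 20.4, 22.3, 23.8 and 33.1 CPM in tumors and did not pass (log2 fold change -0.073, adjusted p = 0.809). Hsf2 was at 18.7 and 16.7 CPM and 78.9, 62.6, 71.9 and 66.7 CPM (log2 fold change 1.98, SE 0.17, adjusted p = 0.000159). Of the 6 genes of this list 3 rose and none fell. Leaving out normal 1 or normal 2 ended the calls of Hsbp1 (0.99 and 1.02) and Hsf5 (1.58 and 1.38). Hsf5 also lost its call without tumor 3 (1.50) and Hsbp1 without tumor 5 (1.03). Among 18 cofactors of HSP70, 8 rose and 5 fell. Of all tested genes 31.3% were called higher, 32.6% lower and 63.9% in either direction, so this list was called about as often as any genes. Bag4 and Bag2, nucleotide exchange factors, rose 4.30-fold and 6.57-fold, and Grpel1, the exchange factor of mitochondrial HSP70, 2.46-fold. Bag3, which links HSP70 to small heat shock proteins, was 4.06-fold lower, at 30.8 and 31.1 CPM in normal lung and 4.38, 9.86, 9.70 and 6.60 CPM in tumors. In the fits without normal 1 or normal 2 fewer of these cofactors were called, as over all tested genes.

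Chaperones of the endoplasmic reticulum went the other way. Hspa5, the ER HSP70 called BiP, stood at 1109 and 1221 CPM in normal 1 and 2 and at 565, 563, 569 and 459.7 CPM in tumors 3 to 6 (log2 fold change -1.11, SE 0.17, adjusted p = 0.00146). Hsp90b1, the ER HSP90 called GRP94, stood at 1204 and 1218 CPM in normal 1 and 2 and at 460.2, 591, 547 and 526 CPM in tumors 3 to 6 (log2 fold change -1.19, SE 0.17, adjusted p = 0.00105). Dnajc3, an ER J-protein that also restrains the kinase PERK, stood at 416 and 398 CPM in normal 1 and 2 and at 77.1, 73.8, 79.4 and 76.4 CPM in tumors 3 to 6 (log2 fold change -2.41, SE 0.12, adjusted p = 3.49e-05). No tumor reached the normal range for any of the 3, and Dnajc3 had the smallest spread of all tested members among the tumors, with a highest tumor 1.08 times the lowest. Per kilobase of exon, Hspa8 of the cytosol stood 1.55 and 1.56 times above Hspa5 in normal lung and 4.21, 3.52, 4.00 and 4.74 times above it in tumors 3 to 6.

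**Figure D4:**
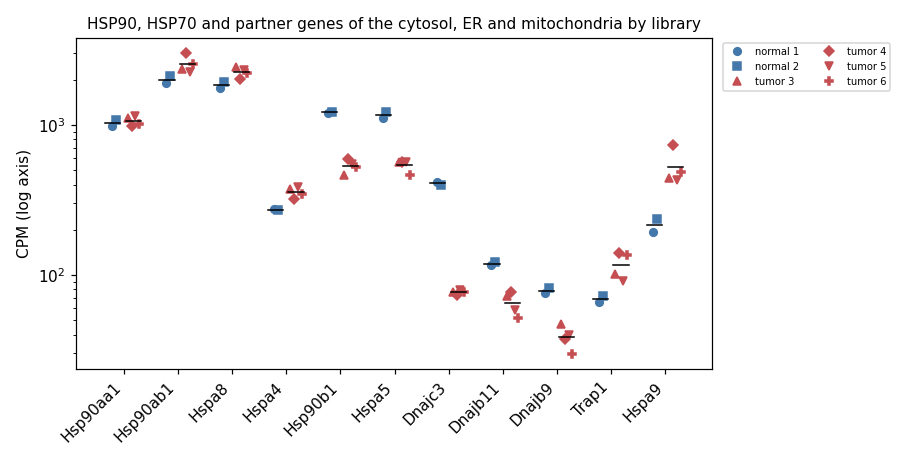
CPM, on a log axis, of cytosolic (Hsp90aa1, Hsp90ab1, Hspa8, Hspa4), ER (Hsp90b1, Hspa5, Dnajc3, Dnajb11, Dnajb9) and mitochondrial (Trap1, Hspa9) chaperone genes in each library, with blue marks for normal lung, red marks for tumors and a black line at each group mean. Of the genes shown, the 5 ER genes are lower and the 2 mitochondrial genes higher in every tumor. The cytosolic genes lie close to normal lung, though every tumor is above both normal samples for Hsp90ab1, Hspa8 and Hspa4. Members that went otherwise, among them Hspa13 of the ER, Dnaja3 and Dnajc30 of the mitochondrion and Dnajb4 of the cytosol, are not plotted.

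The promoters of these 3 genes are shown because they were the only ones among the members' 87 RefSeq promoter windows with the ER stress response element, searched on both strands as CCAAT and CCACG with 9 bases of any kind between them, where 0.119% of all 32851 windows held it. It is the site known for the factors of the unfolded protein response, ATF6 with NF-Y. The windows are from GRCm38.p6, at chr2:34771840-34772139 on the plus strand for Hspa5, chr10:86705395-86705694 on the minus strand for Hsp90b1 and chr14:118937682-118937981 on the plus strand for Dnajc3, written 5′ to 3′ along the gene with matches in capitals.
Hspa5: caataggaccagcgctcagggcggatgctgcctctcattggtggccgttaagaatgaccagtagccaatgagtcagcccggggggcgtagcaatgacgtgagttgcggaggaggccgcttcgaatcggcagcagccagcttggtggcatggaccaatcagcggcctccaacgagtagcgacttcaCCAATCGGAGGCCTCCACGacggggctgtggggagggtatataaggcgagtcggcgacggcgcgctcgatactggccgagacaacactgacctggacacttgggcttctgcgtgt
Hsp90b1: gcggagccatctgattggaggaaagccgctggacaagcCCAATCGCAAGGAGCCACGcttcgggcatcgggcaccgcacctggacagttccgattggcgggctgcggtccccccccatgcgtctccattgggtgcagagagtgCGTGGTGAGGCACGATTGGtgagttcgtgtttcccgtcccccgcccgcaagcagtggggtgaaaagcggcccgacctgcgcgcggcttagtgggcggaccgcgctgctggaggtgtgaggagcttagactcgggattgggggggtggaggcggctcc
Dnajc3: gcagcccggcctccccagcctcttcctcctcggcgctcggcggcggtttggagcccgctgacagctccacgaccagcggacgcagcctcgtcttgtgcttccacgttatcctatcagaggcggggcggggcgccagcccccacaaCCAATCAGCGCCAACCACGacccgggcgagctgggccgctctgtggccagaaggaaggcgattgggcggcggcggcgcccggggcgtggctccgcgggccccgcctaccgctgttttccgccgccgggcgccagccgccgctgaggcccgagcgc
Hsp90b1 held 2 matches and the other promoters 1 each. All 3 genes fell in tumors, and the match is a description of sequence only.

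Further J-proteins of the ER were lower too. Dnajb9 and Dnajb11, soluble partners of BiP, were at 75.7 and 81.6 and at 116 and 122 CPM in normal lung. In tumors Dnajb9 was at 46.8, 37.1, 40.0 and 29.7 CPM (log2 fold change -1.03, SE 0.20, adjusted p = 0.00377). Dnajb11 was at 72.9, 76.4, 58.0 and 52.0 CPM (log2 fold change -0.88, SE 0.19, adjusted p = 0.0068), a call lost without normal 2 (-0.86). Tumor 6 was the lowest tumor for both, as it was for Hspa5. Dnajc1, a J-protein of the ER membrane, was at 85.0 and 86.9 CPM and 49.5, 46.6, 46.1 and 49.7 CPM (log2 fold change -0.84, SE 0.12, adjusted p = 0.00129). Dnajc14, an ER membrane J-protein that aids receptor export, was at 139 and 134 CPM and 81.1, 84.1, 81.4 and 72.5 CPM (log2 fold change -0.78, SE 0.13, adjusted p = 0.00224), with 17.0% of its exon length shared with Ormdl2 on the other strand.

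Dnajc18 of the same membrane was at 59.2 and 53.6 CPM in normal lung and 32.2, 28.5, 36.4 and 37.1 CPM in tumors (log2 fold change -0.75, SE 0.16, adjusted p = 0.0069, lost without normal 1 at -0.69). Dnajc16, another ER membrane J-protein, was at 27.3 and 24.6 CPM and 7.87, 16.7, 9.85 and 13.9 CPM (log2 fold change -1.10, SE 0.32, adjusted p = 0.0215), and Dnajb14, a membrane J-protein of the ER, fell by 0.85. The call of Dnajc16 was lost without normal 1 (-1.04), normal 2 (-1.19) or tumor 5 (-1.01), and that of Dnajb14 without normal 1 (-0.80) or normal 2 (-0.94). Not every ER member passed. Dnajc10, an ER disulfide reductase, and Dnajb12, a membrane J-protein, had log2 fold changes of -0.26 and -0.39, with every tumor below both normal samples, and Hspa13, an HSP70 of microsomes, ranged from 48.2 CPM in tumor 4 to 128 CPM in tumor 3.

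A wider list of 27 genes of ER folding and ER stress, 5 of them members, had 18 that fell and 2 that rose, and of the 22 others 13 fell (median log2 fold change -0.87). Edem1, which marks misfolded glycoproteins for disposal, was 2.73-fold lower at 125 and 124 against 46.0, 46.7, 46.0 and 44.4 CPM, and the disulfide isomerase gene Pdia4 2.62-fold lower at 261 and 277 against 97.9, 111, 105 and 97.1 CPM. The 2 that rose were Atf4, the translation-controlled stress factor (log2 fold change 1.12, SE 0.24, adjusted p = 0.00629), and Sdf2l1, a BiP cofactor (log2 fold change 0.90, SE 0.31, adjusted p = 0.0396). Atf4 lost its call without normal 1 (1.03), and Sdf2l1 without normal 1 (0.82), normal 2 (0.96) or tumor 5 (0.95). Markers of alveolar type 2 cells, which secrete surfactant, were lower for 7 of 7 genes at summed levels of 57.2 to 723 CPM in tumors and 21353 to 23547 CPM in normal lung, and none was at 0 in all tumors. Their part in the ER result was not tested. The collagen chaperone gene Serpinh1, which is not a member, was 17.0-fold lower beside fibroblast markers of which 4 of 7 fell, at 307 to 1035 CPM against 1796 to 1839 CPM.

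Several J-proteins with specialised clients rose. Dnajc6, auxilin, which strips clathrin from vesicles in neurons, stood at 5.56 and 5.31 CPM in normal 1 and 2 and at 40.7, 103, 61.6 and 46.8 CPM in tumors 3 to 6 (log2 fold change 3.53, SE 0.46, adjusted p = 0.000753). Dnajc9, a J-protein that handles histones H3 and H4, stood at 28.4 and 29.5 CPM in normal 1 and 2 and at 207, 155, 150.0 and 107 CPM in tumors 3 to 6 (log2 fold change 2.42, SE 0.29, adjusted p = 0.000575). Dnajc12, a helper of the aromatic amino acid hydroxylases, stood at 11.1 and 10.6 CPM in normal 1 and 2 and at 28.5, 56.3, 42.4 and 17.9 CPM in tumors 3 to 6 (log2 fold change 1.74, SE 0.47, adjusted p = 0.0162), and lost its call without normal 1 (1.76) or normal 2 (1.70). Dnajc6 and Dnajc12 were both highest in tumor 4 and Dnajc9 in tumor 3. All 9 neuroendocrine markers were higher in tumors too, summing to 754, 802, 1220.0 and 716 CPM in tumors 3 to 6 against 12.0 to 22.3 CPM in normal lung. Their sum was highest in tumor 5, which was the highest tumor for none of these genes. The part of neuroendocrine cells was not tested. Dnajc7, a cytosolic J-protein that binds HSP70 and HSP90, rose by 0.65, Dnajc21, a factor of ribosome assembly, by 0.75, and Dnajc27, which carries a small GTPase domain, by 0.84. All of these were lost without normal 1 (0.58, 0.72 and 0.86) and without normal 2 (0.69, 0.74 and 0.80).

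Others fell. Dnaja4 stood at 62.0 and 63.8 CPM in normal 1 and 2 and at 3.80, 14.5, 6.42 and 5.40 CPM in tumors 3 to 6 (log2 fold change -3.06, SE 0.50, adjusted p = 0.00202), although 44.0% of its exon length overlaps Wdr61 on the other strand, a gene that was higher in tumors at 124, 106, 71.7 and 70.7 CPM against 45.4 and 45.9. Dnajb4, a cytosolic relative of Dnajb1, stood at 80.9 and 87.5 CPM in normal 1 and 2 and at 18.4, 18.3, 14.1 and 19.1 CPM in tumors 3 to 6 (log2 fold change -2.27, SE 0.17, adjusted p = 0.000102). Dnajb2, a J-protein best known in neurons, stood at 59.9 and 63.1 CPM in normal 1 and 2 and at 20.4, 17.9, 16.9 and 21.8 CPM in tumors 3 to 6 (log2 fold change -1.68, SE 0.16, adjusted p = 0.000259). No tumor approached normal lung for these 3. Dnajc13, of endosomes, fell by 0.45 at adjusted p = 0.0471, and that call was lost under 12 of 15 alternatives, among them DESeq2 (-0.40) and the removal of either normal sample (normal 1 -0.47, normal 2 -0.47) or of tumor 4 (-0.47), tumor 5 (-0.49) or tumor 6 (-0.40).

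Apart from Dnajb13, the remaining members of the DNAJ families did not pass. Dnajc5, the cysteine string protein of synaptic vesicles, was at 144 and 133 CPM in normal lung and 90.9, 111, 124 and 107 CPM in tumors (-0.36). Dnajc8 and Dnajc17, both linked to splicing, had log2 fold changes of 0.30 and 0.42, and Dnajc24, of diphthamide synthesis, 0.49 (past the threshold without tumor 6 at 0.68). Dnajc4, Dnajc25 and Dnajc28 were at -0.86, 0.11 and -0.34, of which Dnajc4 passed without tumor 4 (-1.06), with total counts (-0.88), with DESeq2 (-0.80) and with limma voom (-0.93). Dnajb5 and Dnajb6 were at 0.49 and 0.20. Dnajb3, Dnajb7 and Dnajc22 stayed at or below 1.46 CPM in every library. Dnajb8, Dnajc5b and Dnajc5g had too few counts to test, with at most 26 in a library.

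Among the members known from particular cell types, 3 that fell are given here. Dnajb2, best known in neurons, fell as well, while Cct6b, Hspa1l, Hspb3, Dnajc6 and the cilium gene Hspb11 were among those that rose. Hspa12b, a distant HSP70 known from endothelium, stood at 61.8 and 66.7 CPM in normal 1 and 2 and at 5.56, 3.49, 5.46 and 2.92 CPM in tumors 3 to 6 (log2 fold change -3.88, SE 0.30, adjusted p = 0.000119), 14.7-fold lower. Endothelial markers were lower for 10 of 10 genes, with sums of 4282 to 4697 CPM in normal lung and 80.6 to 205 CPM in tumors, and none was at 0 in all tumors. Its relative Hspa12a was at 28.6 and 27.6 CPM and 30.0, 16.5, 27.5 and 23.4 CPM and did not pass. Dnajb13, of the radial spokes of motile cilia, stood at 7.84 and 6.99 CPM in normal 1 and 2 and at 0.730, 1.18, 0.547 and 0.778 CPM in tumors 3 to 6 (log2 fold change -3.20, SE 0.38, adjusted p = 0.000555), beside ciliated cell markers of which 11 of 12 were lower, at 31.5 to 55.6 CPM in tumors against 373 to 381. Ucp2 overlaps 11.2% of its exon length on the other strand. Hspa2, an HSP70 known from male germ cells, stood at 43.3 and 40.5 CPM in normal 1 and 2 and at 7.17, 12.1, 6.41 and 4.94 CPM in tumors 3 to 6 (log2 fold change -2.45, SE 0.35, adjusted p = 0.00116), while the testis germ cell markers summed to at most 0.853 CPM in any library. The part of cell makeup in these values was not tested.

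Hspb1, HSP27, had the largest fall among the tested members. It stood at 172 and 217 CPM in normal 1 and 2 and at 4.13, 3.73, 2.84 and 13.9 CPM in tumors 3 to 6 (log2 fold change -4.98, SE 0.66, adjusted p = 0.000835), 31.5-fold lower, and tumor 6 was more than 3 times any other tumor. The fall was larger without that tumor (-5.68). Cryab, the small heat shock protein alpha-B-crystallin, which the symbol rule leaves out, was lower as well, at 138 and 142 CPM in normal lung and 6.09, 15.5, 5.64 and 7.91 CPM in tumors (log2 fold change -3.99, SE 0.42, adjusted p = 0.000336). Hspb2 lies head to head with Cryab and shares 30.2% of its exon length with it. It was at 7.80 and 7.80 CPM and 2.12, 5.30, 1.26 and 1.35 CPM and missed the threshold (adjusted p = 0.0523), but passed without tumor 4 (-2.30), with total counts (-1.69), with DESeq2 (-1.58) and with limma voom (-1.95).

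The other small heat shock proteins of muscle varied between tumors. Hspb8, the partner of Bag3, was at 45.5 and 50.8 CPM in normal lung and 9.13, 50.4, 26.2 and 9.96 CPM in tumors, so tumor 4 lay close to normal lung, and of the 15 alternatives it passed only when that tumor was left out (-1.67). Hspb6, HSP20, was at 4.45 and 6.44 CPM and 3.03, 4.36, 3.48 and 13.6 CPM, with tumor 6 above both normal samples, and its log2 fold change of 0.17 became -0.50 without tumor 6. Hspb7, known from heart and skeletal muscle, was at 5.34 and 13.8 CPM and 0.954, 1.45, 0.469 and 6.90 CPM, likewise highest in tumor 6 among the tumors, and passed without it (-3.23) and with limma voom (-2.57). Hspb1, Hspb6 and Hspb7 were thus each highest in tumor 6, which also stood apart in several marker lists. The 12 striated muscle markers summed to 637 CPM in tumor 6 and 40.8 to 78.2 CPM in the other tumors, against 324 and 778 CPM in normal lung. Fibroblast markers summed to 1035 CPM in tumor 6 and 307 to 441 CPM in the other tumors, and smooth muscle and pericyte markers to 238 CPM against 139.8 to 187 CPM. Alveolar type 2 markers were lowest there, at 57.2 CPM against 488 to 723 CPM. Of the striated muscle markers none was at 0 in all tumors and 6 of 12 were called lower. Fewer were called lower without normal 2, as over all tested genes. Without tumor 5 the count was 4, where 30.7% of all tested genes were called lower. The part of these cell types in the small heat shock protein values was not tested.

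**Figure D5:**
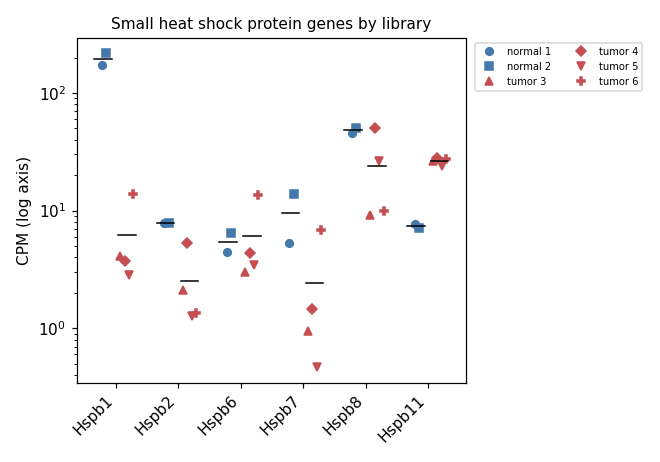
CPM, on a log axis, of 6 genes grouped by symbol as small heat shock proteins in each library, with blue marks for normal lung, red marks for tumors and a black line at each group mean. Tumor 6 is the highest tumor for Hspb1, Hspb6 and Hspb7, tumor 4 for Hspb2 and Hspb8, and Hspb11 is higher in every tumor.

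Hspb3, a small heat shock protein known from muscle, was at or near 0 in normal lung with 2 counts in all, and had 248, 2, 35 and 177 counts in tumors 3 to 6, or 3.70, 0.0393, 0.456 and 2.65 CPM. The ratio of summed counts was 169 (95% interval 46.4 to 1397, counting error only). Most of the counts came from tumors 3 and 6. The call (adjusted p = 0.0285) was lost with limma voom (5.99), without tumor 3 (6.44 on the log2 scale), without normal 1 (ratio 81.8, interval 22.5 to 678) and without normal 2. In that last case 0 normal counts remain, and against an assumed floor of 3 normal counts the ratio of summed counts was 57.9. These ratios pool the tumors and leave out their spread, from 0.0393 to 3.70 CPM. Tumor 4 held no more counts than the normal samples together. Hspb11, placed in this family by its symbol alone, encodes IFT25, which carries cargo inside cilia. It stood at 7.67 and 7.07 CPM in normal 1 and 2 and at 26.5, 28.2, 24.1 and 27.4 CPM in tumors 3 to 6 (log2 fold change 1.85, SE 0.19, adjusted p = 0.000342), with every tumor above normal lung and little spread between tumors. Hspb9, known from testis, had at most 26 counts in any library and did not pass.

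Within the tumors, the median ratio of the highest to the lowest tumor was 1.53 over the 78 tested members with counts in every tumor, and 16 of these exceeded 2 times. Dnajc22 had 0 counts in tumor 3 and gives no ratio. The chaperonin families had none above that mark, with ratios of 1.14 to 1.56 for CCT genes and 1.65 to 1.76 for the mitochondrial pair. Small heat shock proteins spread most, with 6 of 8 above it and a median ratio of 4.70. These ratios describe 4 animals and were not tested.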

How the data were processed

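Poly(A)-selected RNA of flash-frozen tissue was sequenced, per the labels' protocols. The deposited values are raw gene counts that the authors made with TPMCalculator, per the labels. Among programs, the submitters' processing notes list R 3.5.1, DESeq2 1.22.2, STAR 2.5.4a, Trimmomatic 0.36 and Trim Galore, with the build mm9 and no role or order. Neither the annotation nor the strand setting is stated there. Members and lists were chosen with earlier results of these data known. All genes entered one edgeR 4.0.16 quasi-likelihood fit (R 4.3.3), tumor against normal with no other term. Genes were kept by filterByExpr (group-wise, 10 counts per library and 15 in total), libraries scaled by TMM, and p-values adjusted by Benjamini-Hochberg over 18027 genes. The standard error is the size of the log2 fold change divided by the square root of F. CPM use TMM-scaled library sizes. The code was tested on simulated data. Every pair of libraries within a group differed by more than sampling noise (chi-square per degree of freedom of 51.4 or more), and the library names give each a mouse of its own. Per-kilobase values use the joined exons of GENCODE M21 on GRCm38, where all 83 members matched. That build differs from mm9, so only RefSeq promoter windows, found by symbol, carry coordinates. Overlaps and copies (at least 200 aligned bases at 97% identity or more) come from the same annotation. The fits were repeated with DESeq2 1.42.0 and limma voom 3.58.1, with RLE or upper quartile factors or plain totals, without the filter, with a minimum of 1 CPM throughout a group, halved counts, removal of 1135 small non-coding, ribosomal precursor and histone rows, and leaving out each library. Values in every library are given for the HSP90 and chaperonin genes, for up to 5 members per direction of each other family by smallest p, and for its most abundant member, and up to 3 genes per direction for other lists. Hspa1b, Cryab, Acta1, Ckm, Myh6, the overlapping neighbours and the further members given by library were chosen after their values were seen. Likeness between members across 4 tumors is not given because the number of tumors is too small.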

Additional observations from a re-analysis of the deposited data

Results flagged for a closer look

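Among the 4 tumors, 1 sample stood far from the rest for 7 of 79 tested members, judged by its gap to the nearest other tumor as a share of the range of all tumors (the threshold is Dixon's 95% value for 4 samples). For normally distributed values chance alone marks about 1 in 20 genes by this measure. CPM need not be so distributed, and the share marked among all tested genes was not computed. Tumor 6 was the sample for 5 of them, low for Hspa5 (gap share 0.945, at 459.7 CPM with the others from 563 to 569 CPM) and high for Dnajc27 (0.889, 34.0 CPM), Hspb1 (0.884, 13.9 CPM), Hspb6 (0.874, 13.6 CPM) and Hspb7 (0.847, 6.90 CPM). Tumor 3 was low for Dnajc13 (0.851, 61.5 CPM) and tumor 4 high for Dnajc2 (0.838, 115 CPM).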

How the results depend on the processing

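No paired analysis was possible because the normal and tumor samples share no replicate number. Of the 28 members that rose and the 22 that fell, 17 and 14 kept their call under every alternative run. Over the leave-one-out fits the number of members higher ran 17 to 30, lower 16 to 25, and by family higher 0 to 1 for DNAJA, 5 to 11 for DNAJC (lower 3 to 8), 1 to 4 for HSP70 and HSP110, 0 to 1 for HSP90 and 1 to 2 for small heat shock proteins (lower 1 to 3). The fits without a normal sample also called fewer of all tested genes, not of the members alone. Dnaja2, the DNAJA gene that rose, gave 0 higher with total counts and with no filter. With DESeq2 1 DNAJB gene rose. Small heat shock protein genes higher were 1 with the stricter filter and with limma voom, and lower were 2 with total counts, 2 with DESeq2 and 3 with limma voom. Some members that did not pass changed sign: Dnaja3 with RLE (0.055), upper quartile (0.12), the stricter filter (0.085), DESeq2 (0.055), halved counts (0.014) and rows removed (0.086), Hspa13 with RLE (0.035), upper quartile (0.10), the stricter filter (0.064), DESeq2 (0.035) and rows removed (0.074), Dnajb1 with upper quartile (0.034) and rows removed (0.0023), and Hspb6 with limma voom (-0.10). Leaving out a library gave ranges across 0 of -0.076 to 0.26 for Dnaja1, -0.090 to 0.080 for Dnaja3, -0.21 to 0.037 for Dnajb1, -0.025 to 0.25 for Dnajc25, -0.26 to 0.18 for Hspa13, -0.020 to 0.17 for Hsp90aa1, -0.50 to 0.44 for Hspb6 and -0.48 to 0.32 for Hspb9. Causes were not tested. Upper quartile scaling moved the median log2 fold change of all genes from 0.015 to 0.14 and that of the members from 0.11 to 0.24. With counts halved, no member that rose or fell lost its call except Dnajc13, and the 4 members not tested had too few counts for the filter.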
